A study of Homo sapiens with 6 samples.

Results

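The genes described here are the integrin subunits and the cytoplasmic adaptors of focal adhesions. They were chosen by name and comprised 44 genes: 18 α subunits, 8 β subunits and 18 adaptors. Each was read from its entry on a primary chromosome, out of 41497 named entries. The cells were HK-2, a human kidney line of proximal tubular origin that was immortalised in culture, with the genotype label WT. They were left untreated (control, 3 libraries) or received TGF-β1 (3 libraries), and RNA was taken at 24 h in both groups. TGF-β1 is a secreted cytokine that drives fibrosis and epithelial dedifferentiation in the kidney. HK-2 is a single cultured line. The labels give no dose and a growth medium with serum, whereas the study's general methods place TGF-β treatments in serum-free medium at 1 stated dose without naming these libraries.

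Integrins are receptors made of 1 α and 1 β subunit, and the pairing sets the ligand. The β1 subunit joins the largest number of α subunits and binds collagens, laminins or fibronectin according to its partner. The αV subunit joins β1, β3, β5, β6 or β8 and binds proteins that carry an RGD tripeptide, among them fibronectin and the latency peptide that keeps TGF-β inactive. αVβ6 and αVβ8 are known as activators of latent TGF-β on epithelia. Inside the cell, talins and kindlins switch integrins on, and vinculin, paxillin, tensins and the complex of ILK, PINCH and parvin tie them to actin.

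The libraries held 21.9 to 26.9 M counts (megacounts). Levels are given as CPM, counts scaled to library size with TMM factors. Levels of different genes are compared only as TPM, which divides by gene length and carries no TMM factor. A change between groups can therefore differ between TPM and CPM. In the control and TGF-β1 libraries, TLN1 averaged 139 and 138 TPM but 360 and 388 CPM. For ITGA1 the groups overlapped in TPM, at 24.7 to 28.7 and 25.3 to 29.98, but not in CPM. A value after ± is the SD of 3 libraries, and beside a log2 fold change it is the SE. A signed value in brackets together with an adjusted p is a log2 fold change, TGF-β1 against control. The epithelial genes KRT8, KRT18 and PAX8 were present at means of 488, 202 and 251 CPM in the control libraries, whereas the proximal tubule transporter genes LRP2 and SLC22A6 had no read in any library and ANPEP averaged 0.0437 CPM. The 12 epithelial and tubular markers summed to 994 to 1062 CPM in the control and 1197 to 1384 CPM in the TGF-β1 libraries, with 4 of the 9 tested higher and 4 lower. The leukocyte gene PTPRC averaged 0.0284 CPM in the control and 0.0266 CPM in the TGF-β1 libraries, CD3E had no read, and the 7 leukocyte markers summed to 99.7 to 108 CPM in the control and 86.0 to 112 CPM in the TGF-β1 libraries, mostly CD68. The 5 endothelial markers summed to at most 1.68 CPM in a library, the 4 platelet markers to at most 0.810 CPM, and the 7 fibroblast markers to 60.0 to 69.6 CPM in the control and 58.3 to 59.4 CPM in the TGF-β1 libraries. Fewer cells of a kind and less RNA per cell cannot be told apart in such bulk libraries. The labels do not say that the 3 libraries of a group came from separate cultures, so the p-values measure the spread between these libraries, which may be technical.

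Of the 44 genes, 34 had enough reads to be tested with the quasi-likelihood F test of edgeR. After TGF-β1, 12 rose, 10 fell and 12 were not called at an adjusted p under 0.05. Among all 14860 genes tested, 22.2% rose and 22.1% fell, together 44.3%. The 17 integrin subunits tested split into 7 that rose, 8 that fell and 2 not called, and the 17 adaptors tested into 5 that rose, 2 that fell and 10 not called. Changes of at least 2-fold were seen for ITGA2 and TNS1, which rose (3.68% of all genes tested did), and for ITGB8, ITGAX and ITGB4, which fell (5.38% of all genes tested did; 9.06% in either direction). The levels of the control and the TGF-β1 libraries did not overlap for 26 of the 34 genes, against 55.6% of all genes tested. The median log2 fold change of the 34 genes was 0.10, and that of all genes tested was 0.01. Scaling by total counts alone lowered the median of all genes by a log2 difference of 0.108, and of the 22 calls it removed that of ITGA1.

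**Figure D1:**
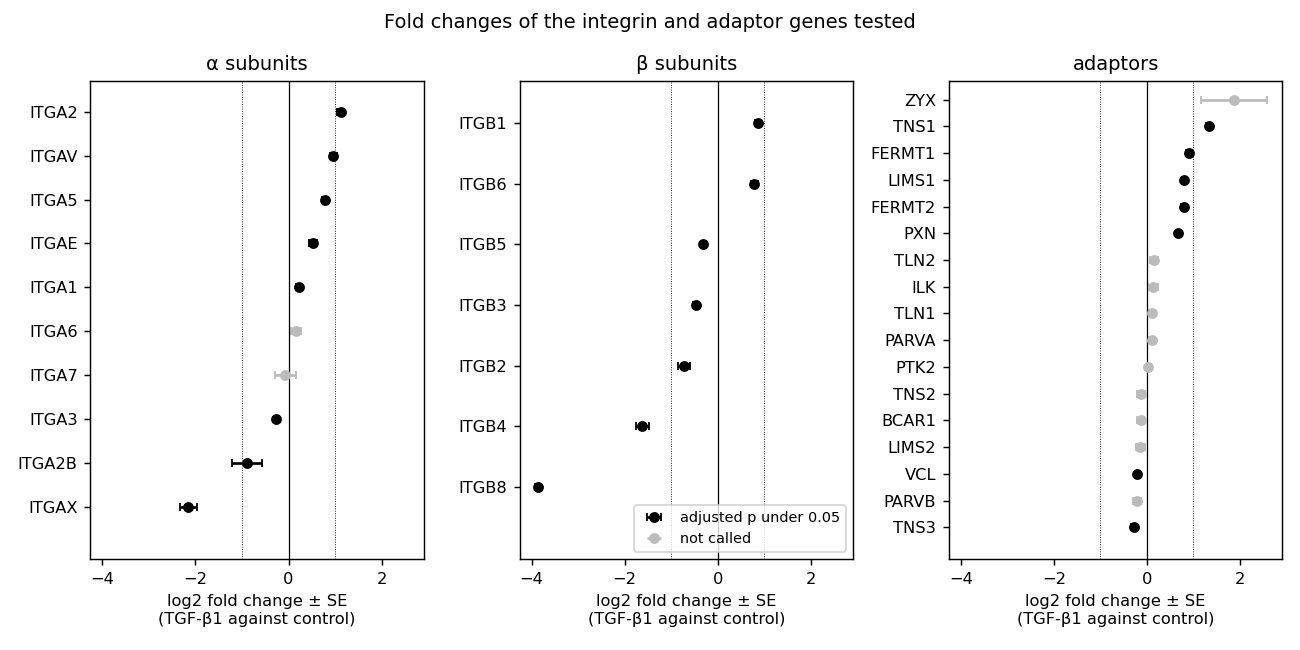
Log2 fold change of each of the 34 genes tested, TGF-β1 against control, with its standard error, for α subunits, β subunits and adaptors. Black points passed an adjusted p under 0.05, grey points did not, and dotted lines mark a 2-fold change. ITGB8 lies at -3.87, far to the left of the other β subunits.

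The αV subunit and its β partners moved in different directions. ITGAV (chr2:186590056-186680901, plus strand, hg38), which encodes αV, was read at 703, 718 and 759 CPM in the control libraries and 1231, 1504 and 1521 CPM in the TGF-β1 libraries. The groups were well apart, and TGF-β1 replicate 1 was the lowest of its group. Its log2 fold change was 0.96 ± 0.08 (SE, adjusted p = 4.22e-06). ITGB1 (chr10:32900318-32958230, minus strand), the shared β1 subunit, rose by a log2 fold change of 0.86 ± 0.07 (adjusted p = 2.91e-06), from 1636, 1637 and 1672 CPM to 2695, 3218 and 3093 CPM, and again TGF-β1 replicate 1 was the lowest of the treated libraries. It was the most abundant of the 44 genes per length in both groups, at 1365 ± 41.4 TPM in the control and 2294 ± 270.4 TPM in the TGF-β1 libraries.

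The 2 β subunits known for the activation of latent TGF-β moved in opposite directions. ITGB8 (chr7:20329819-20415754, plus strand), which encodes β8, stood at 218, 226 and 226 CPM in the control libraries and at 14.4, 15.3 and 16.2 CPM in the TGF-β1 libraries. This was the largest change among the 34 genes (-3.87 ± 0.06 on the log2 scale, adjusted p = 7.24e-11), with a tight spread in both groups. ITGB6 (chr2:160099671-160200272, minus strand), which encodes β6, rose from 64.6, 63.6 and 72.7 CPM to 104, 126 and 117 CPM, a log2 fold change of 0.79 ± 0.08 (adjusted p = 1.57e-05). Per length, ITGB8 was above ITGB6 in each control library and far below it in each TGF-β1 library: the ratio of ITGB6 to ITGB8 in TPM was 0.663 ± 0.0455 in the control and 16.7 ± 1.30 in the TGF-β1 libraries. An antisense entry, ITGB8-AS1, shares 1.10% of the exonic bases of ITGB8 and fell from a mean of 0.554 to 0.171 CPM. The strand setting of the counting is not given, and these levels were small beside those of ITGB8.

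In fold change, the other RGD-binding β subunits that fell did so by less. ITGB3, which encodes β3, went from 365, 349 and 370.4 CPM to 239.8, 265 and 284 CPM (-0.46 ± 0.07 on the log2 scale, adjusted p = 2.23e-04). ITGB5, which encodes β5, the partner of αV in vitronectin binding, went from 149.9, 145 and 140.2 CPM to 120.2, 118 and 112 CPM (-0.31 ± 0.05, adjusted p = 7.48e-04). For both genes all treated libraries lay below all control libraries. Neither approached the fold change of ITGB8. In mean TPM, however, the drop of ITGB3, from 203 to 136, was close in size to that of ITGB8, from 72.5 to 4.58.

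With these changes, the mix of β subunit mRNA open to αV shifted. Within a library, ITGB1 made up 76.3% ± 0.234 of the summed TPM of the 5 β partners in the control and 88.7% ± 0.433 after TGF-β1. The share of ITGB8 went from 4.05% ± 0.0842 to 0.178% ± 0.0105, that of ITGB3 from 11.3% ± 0.242 to 5.26% ± 0.272 and that of ITGB5 from 5.63% ± 0.245 to 2.91% ± 0.340. The share of ITGB6 went from 2.68% ± 0.163 to 2.96% ± 0.0543, a rise of 0.276 percentage points. None of the 5 shares overlapped between the groups, and each reached the smallest p of 0.1 that the 2-sided exact permutation test of 3 against 3 libraries can give, so this test could not pass 0.05.

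Leaving ITGB1 aside gives the shares among the 4 partners that pair with αV and have few or no other α subunits. ITGB8 held 16.6%, 17.7% and 17.02% of their summed TPM in the control libraries and 1.58%, 1.52% and 1.61% in the TGF-β1 libraries. ITGB6 held 10.9%, 10.98% and 12.1% in the control and 25.1%, 27.7% and 25.8% after TGF-β1. ITGB3 held 47.8% ± 0.606 and 46.6% ± 1.96 (exact permutation p = 0.4), and ITGB5 held 23.8% ± 0.992 and 25.7% ± 2.18 (exact permutation p = 0.3). The shares of ITGB3 and ITGB5 overlapped between the groups, while the share of ITGB8 fell by 15.5 percentage points and that of ITGB6 rose by 14.9. Taken from counts in place of TPM, which gives long genes more weight, the share of ITGB8 went from 28.02% to 2.996%, that of ITGB6 from 8.40% to 22.6%, that of ITGB5 from 18.2% to 22.9% and that of ITGB3 from 45.4% to 51.5%, so the direction for ITGB3 depended on the scale. The summed TPM of the 4 partners fell, from 424 ± 12.8 in the control to 292 ± 23.0 in the TGF-β1 libraries. A share could therefore hold or rise while the TPM of its gene fell. Mean TPM went from 72.5 to 4.58 for ITGB8, from 203 to 136 for ITGB3, from 101 to 74.6 for ITGB5 and from 48.1 to 76.5 for ITGB6. The summed TPM of the 4 partners over that of ITGAV was 1.27 ± 0.0436 in the control and 0.486 ± 0.0328 in the TGF-β1 libraries.

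**Figure D2:**
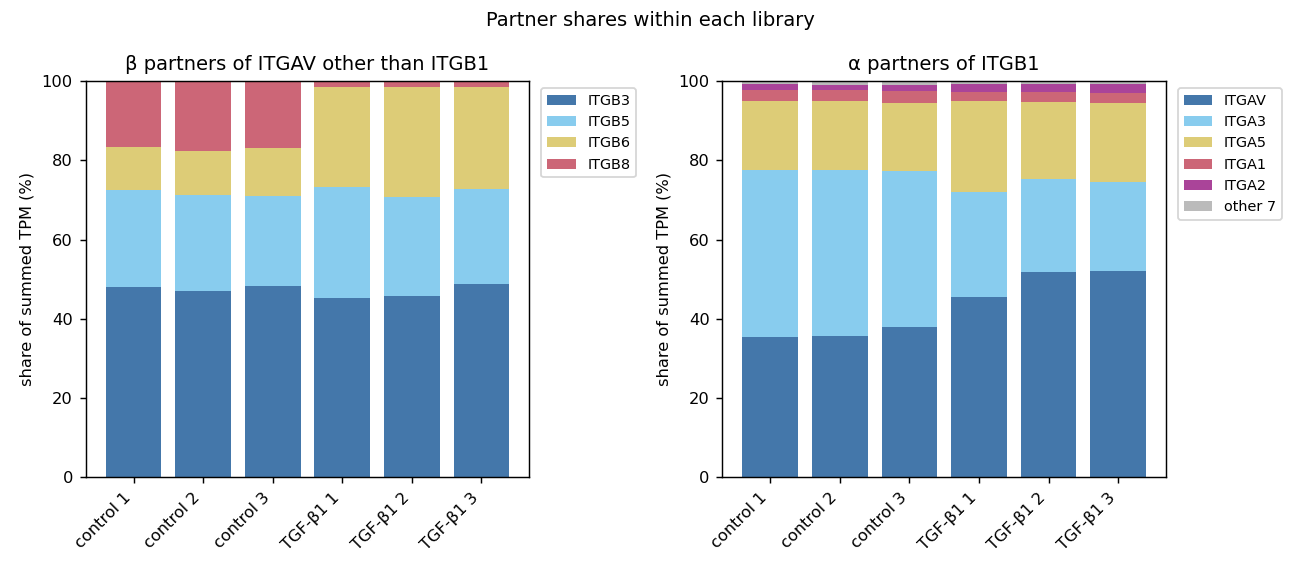
Share of the summed TPM, in percent, in each of the 6 libraries, for the 4 β partners of ITGAV other than ITGB1 (left) and for the α partners of ITGB1 (right), each bar being 1 library. On the left the ITGB8 segment shrinks from about 17.1% to 1.57% while ITGB6 grows from 11.3% to 26.2%, and on the right ITGA3 gives way to ITGAV.

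Among the α partners of β1, the fibronectin receptor subunit α5 and the collagen receptor subunit α2 rose, and the laminin receptor subunit α3 fell. ITGA5 (chr12:54395261-54419266, minus strand), whose product with β1 is the classical fibronectin receptor, rose from 207, 209 and 204 CPM to 372, 341 and 348 CPM, a log2 fold change of 0.78 ± 0.05 (adjusted p = 7.22e-07). FN1, the gene of fibronectin, rose by 0.98 ± 0.08 on the log2 scale (adjusted p = 1.81e-06) and reached a mean of 31536 CPM. ITGA3, which pairs with β1 as an epithelial laminin receptor, fell from 578, 581 and 541 CPM to 498, 468 and 454 CPM (-0.26 ± 0.06, adjusted p = 0.00377). The ratio of ITGA5 to ITGA3 in TPM was 0.420 ± 0.0117 in the control and 0.862 ± 0.0216 in the TGF-β1 libraries, without overlap.

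The genes of the collagen receptor subunits α1 and α2 are neighbours on the plus strand of chromosome 5, at chr5:52787916-52959209 and chr5:52989352-53094779. ITGA2 rose from 29.3, 28.7 and 32.5 CPM to 59.99, 67.7 and 69.7 CPM (1.12 ± 0.08, adjusted p = 6.48e-07). ITGA1 stood at 80.95, 82.7 and 90.8 CPM in the control and 91.4, 102 and 104 CPM in the TGF-β1 libraries (0.22 ± 0.07, adjusted p = 0.0201). The separation of the ITGA1 groups was narrow, with the highest control library at 90.8 and the lowest treated library at 91.4 CPM. The call of ITGA1 was lost without control replicate 1 (log2 fold change 0.19), without control replicate 2 (0.21), without TGF-β1 replicate 2 (0.20) and without TGF-β1 replicate 3 (0.18). ITGA1 also shares 4.65% of its exonic bases with PELO on the same strand. The other collagen receptor subunits, α10 and α11, had 5 to 8 and 0 to 3 reads per library and were not tested.

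The laminin receptor subunits α6 and α7 were not called. ITGA6 stood at 12.5, 15.3 and 14.8 CPM in the control and 14.8, 14.4 and 18.2 CPM in the TGF-β1 libraries (0.16 ± 0.11, adjusted p = 0.280), and ITGA7 averaged 1.46 ± 0.200 and 1.40 ± 0.304 CPM (-0.07 ± 0.22, adjusted p = 0.833). The groups overlapped for both genes.

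Among the 12 α partners of ITGB1 by summed TPM, ITGA3 came first in the control with 41.1% ± 1.57 and ITGAV came first after TGF-β1 with 49.8% ± 3.78. ITGA3 then held 24.2% ± 2.17, against 36.4% ± 1.45 for ITGAV in the control. The share of ITGA5 went from 17.3% ± 0.195 to 20.8% ± 1.82 and that of ITGA2 from 1.38% ± 0.0979 to 2.11% ± 0.0807. The share of ITGA1 went down, from 2.85% ± 0.180 to 2.34% ± 0.0654, although its CPM was higher. These shares did not overlap between the groups (exact permutation p = 0.1 each, the smallest possible). All α partners together amounted to 0.675 ± 0.0102 times the TPM of ITGB1 in the control and 0.529 ± 0.0291 times in the TGF-β1 libraries.

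TGF-β receptors signal through SMAD factors, which bind short elements in DNA. The start regions of 4 subunits that rose, αV, β1, α5 and β6, are printed to show where such letters lie, and each window ends at the base before the first base of the entry in the files. They are the 250 bases before the start given by RefSeq for GRCh38.p14, 5′ to 3′ on the strand of the gene, and capitals mark CAGAC, the short element bound by SMAD3 and SMAD4. Both strands were searched.
ITGAV, chr2:186589806-186590055, plus strand: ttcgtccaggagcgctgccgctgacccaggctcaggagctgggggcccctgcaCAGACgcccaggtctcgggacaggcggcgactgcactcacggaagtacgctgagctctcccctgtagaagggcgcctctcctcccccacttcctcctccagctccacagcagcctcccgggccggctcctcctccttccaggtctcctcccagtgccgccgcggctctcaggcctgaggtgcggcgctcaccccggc
ITGB1, chr10:32958231-32958480, minus strand: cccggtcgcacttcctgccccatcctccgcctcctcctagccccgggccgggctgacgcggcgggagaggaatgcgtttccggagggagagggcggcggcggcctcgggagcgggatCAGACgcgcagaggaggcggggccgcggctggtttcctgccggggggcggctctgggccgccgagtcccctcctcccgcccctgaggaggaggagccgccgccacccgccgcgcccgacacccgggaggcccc
ITGA5, chr12:54419267-54419516, minus strand: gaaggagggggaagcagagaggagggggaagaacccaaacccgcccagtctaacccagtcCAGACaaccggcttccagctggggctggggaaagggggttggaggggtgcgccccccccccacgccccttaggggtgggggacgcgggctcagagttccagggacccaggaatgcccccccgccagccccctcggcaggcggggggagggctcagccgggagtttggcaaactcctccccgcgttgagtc
ITGB6, chr2:160200273-160200522, minus strand: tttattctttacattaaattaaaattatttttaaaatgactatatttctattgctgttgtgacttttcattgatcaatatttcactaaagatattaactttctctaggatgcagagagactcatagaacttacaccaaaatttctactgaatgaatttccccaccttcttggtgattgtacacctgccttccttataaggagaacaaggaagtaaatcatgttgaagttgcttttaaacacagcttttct

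The windows of ITGAV, ITGB1 and ITGA5 each held 1 CAGAC and were GC-rich, at 70.8%, 78.4% and 70.0% G or C. The window of ITGB6 held none and was 30.0% G or C. A window was found for 31 of the 44 genes, and the one whose RefSeq start lay nearest the first base of the entry was taken. Not all of these starts lay at that base. The distance was 2578 bases for ITGAE and 799 for LIMS1, which rose and whose windows held CAGAC. It was 1081 for ITGB8, which fell and whose window held CAGAC, 7280 for TNS1 and 25138 for PARVB. The windows of ITGAE, LIMS1, ITGB8 and PARVB lay inside the entry, downstream of its first base, and that of TNS1 lay upstream of its entry. CAGAC was present in 6 of the 11 windows of genes that rose, in 2 of the 5 windows of genes that fell, and in 13 of all 31 (41.9%), against 38.0% of 35116 windows of the same length. TGANTCA, the element bound by AP-1, in which N is any base, was found in 1 of the 31 windows, that of BCAR1, and in 6.57% of all windows. A match of letters does not show that a factor binds there.

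The subunits β4, β2, αX and αIIb, best known from hemidesmosomes, leukocytes and platelets, fell after TGF-β1. Of these, β4, αX and αIIb were low in these cells. ITGB4, which encodes β4 and links laminin to keratin, fell from 6.25, 6.62 and 6.09 CPM to 2.19, 1.82 and 2.15 CPM (-1.62 ± 0.14, adjusted p = 4.23e-06). Beside ITGB1, the other β partner of α6, it made up 0.224% ± 0.0117 of their summed TPM in the control and 0.0405% ± 0.00723 after TGF-β1. ITGB2, the β2 subunit of leukocytes, fell from 13.96, 16.3 and 12.2 CPM to 7.68, 8.73 and 9.31 CPM (-0.73 ± 0.12, adjusted p = 5.86e-04). Its antisense partner ITGB2-AS1 shares 5.09% of its exonic bases and fell from a mean of 4.99 to 1.37 CPM, and reads of both strands may be mixed.

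ITGAX, the αX partner of β2, had 73, 74 and 79 reads in the control and 20, 15 and 16 in the TGF-β1 libraries (-2.15 ± 0.19, adjusted p = 4.55e-06). ITGA2B, the platelet subunit αIIb, had 12, 20 and 20 reads and 11, 8 and 9 reads (-0.89 ± 0.31, adjusted p = 0.0392). The call of ITGA2B, which rests on these few reads, was lost in 5 of the 6 fits without 1 library, with log2 fold changes of -0.81 and -0.78 without control replicates 2 and 3 and of -0.96, -0.78 and -0.96 without TGF-β1 replicates 1, 2 and 3. ITGAE, the αE subunit, whose only known partner is β7, rose from 29.5, 28.7 and 28.9 CPM to 41.9, 37.2 and 46.7 CPM (0.53 ± 0.08, adjusted p = 3.61e-04). It shares 15.8% of its exonic bases with NCBP3 on the same strand, which rose by 0.72, so part of its reads is uncertain. Of the leukocyte markers, CD68 fell from a mean of 96.7 to 71.04 CPM and CD14 from 2.55 to 0.763 CPM, CSF1R rose from 4.19 to 24.6 CPM, and PTPRC and CD3E were near or at 0. The platelet markers PF4 and GP9 had no read. The part of such cells or programmes in these values was not tested.

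The remaining 9 integrin subunits, ITGA4, ITGA8, ITGA9, ITGA10, ITGA11, ITGAD, ITGAL, ITGAM and ITGB7, had too few reads to be tested. Their counts ran from 0 to 13 per library, and ITGAL had none in any library. A count of 0 in a library allows up to 3 reads, for counting error only.

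Read as the receptors they can form, the 26 subunits give 24 known heterodimers, and 14 of these had both subunits tested. Both subunits rose for α1β1, α2β1, α5β1, αVβ1 and αVβ6. Both fell for αIIbβ3 and αXβ2. The calls were opposite for α3β1, αVβ3, αVβ5 and αVβ8, with αV or β1 higher and the partner lower. For α6β1, α7β1 and α6β4, 1 subunit was not called. These are levels of mRNA, and neither surface protein nor pairing was measured.

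A pair needs both subunits, so the subunit with the lower TPM was read for each. This reading counts a shared subunit, such as ITGAV or ITGB1, in full for each of its pairs and leaves out competition for it. In the control, the β partners of ITGAV other than ITGB1 together exceeded it, at 1.27 ± 0.0436 times its TPM. In every β1 heterodimer tested the lower subunit was the α subunit, and in αVβ3, αVβ5, αVβ6 and αVβ8, each taken singly, it was the β subunit, in both groups. For αVβ1 the lower subunit, ITGAV, went from 319, 331 and 357 TPM to 506, 653 and 653 TPM. For αVβ8 the lower subunit went from 69.6, 73.2 and 74.6 TPM to 4.18, 4.66 and 4.89 TPM, and for αVβ6 from 45.6, 45.5 and 53.1 TPM to 66.7, 84.9 and 78.1 TPM. In the control the order from the top was α3β1, αVβ1, αVβ3, α5β1, αVβ5, αVβ8 and αVβ6, and after TGF-β1 it was αVβ1, α3β1, α5β1, αVβ3, αVβ6 and αVβ5, with αVβ8 below α1β1, α2β1 and α6β1. No neighbours among these overlapped in the control. After TGF-β1, αVβ6 overlapped αVβ5 (66.7 to 84.9 and 72.2 to 77.05 TPM), and α1β1 overlapped α2β1 (25.3 to 29.98 and 22.6 to 27.4 TPM). Of the 24 heterodimers, 12 had a lower subunit above 1 TPM in the control and 10 after TGF-β1.

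**Figure D3:**
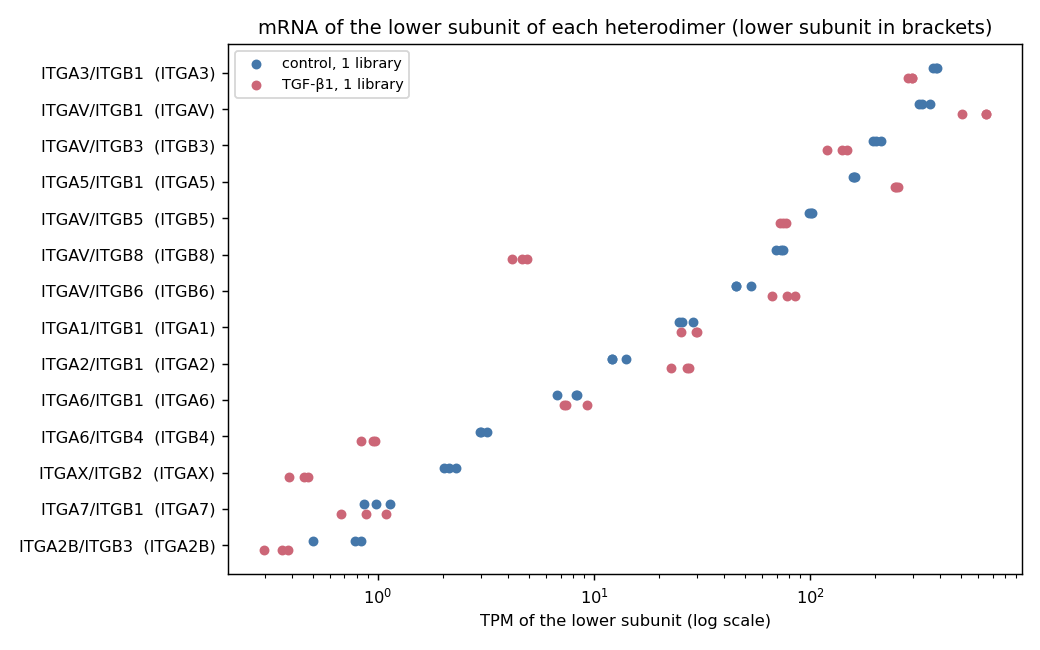
TPM of the lower subunit, named in brackets, on a log axis for the 14 heterodimers with both subunits tested, each point being 1 library. The αVβ8 points fall from 69.6 to 74.6 TPM in the control to 4.18 to 4.89 TPM after TGF-β1, and the αVβ6 points move from 45.5 to 53.1 TPM up to 66.7 to 84.9 TPM.

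Of the 7 adaptors called, 5 were higher after TGF-β1 and 2 lower. FERMT1 and FERMT2, kindlins that bind the β tail beside talin and complete integrin activation, rose. The blood cell kindlin FERMT3, from the list of adhesion partners, had 25 reads in the 3 control and 35 in the 3 TGF-β1 libraries and was not called (0.46 ± 0.42, adjusted p = 0.409). FERMT2, kindlin-2, was read at 106, 113 and 107 CPM in the control and 194, 191 and 180.3 CPM in the TGF-β1 libraries (0.79 ± 0.05, adjusted p = 6.44e-07). FERMT1, kindlin-1, typical of epithelia, was read at 19.4, 20.6 and 20.3 CPM and 35.9, 38.01 and 39.4 CPM (0.91 ± 0.06, adjusted p = 9.93e-07). FERMT2 held most of the summed TPM of FERMT1 and FERMT2, with 88.6% ± 0.194 in the control and 87.7% ± 0.895 after TGF-β1 (exact permutation p = 0.2).

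The talins, which bind the β tail and pull it open, were not called. TLN1 stood at 366, 353 and 362 CPM and 370.4, 402 and 390.5 CPM (0.11 ± 0.05, adjusted p = 0.132), and TLN2 at 28.7, 26.8 and 28.8 CPM and 27.00, 32.3 and 33.8 CPM (0.14 ± 0.09, adjusted p = 0.205). The 95% interval of the log2 fold change was -0.01 to 0.22 for TLN1 and -0.05 to 0.33 for TLN2. TLN1 held 96.05% ± 0.0894 of the talin TPM in the control and 95.95% ± 0.333 after TGF-β1 (exact permutation p = 0.7). VCL, vinculin, which binds stretched talin, fell from 527, 515 and 524 CPM to 433, 464 and 462 CPM (-0.20 ± 0.05, adjusted p = 0.00862). VCL shares 20.2% of its exonic bases with AP3M1, whose log2 fold change was -0.08 and not called.

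Of the complex of ILK, PINCH and parvin, which joins β tails to actin, 1 gene was called. LIMS1, PINCH-1, rose from 106, 103 and 103 CPM to 175, 182 and 186 CPM (0.80 ± 0.05, adjusted p = 4.07e-07), and its share of the summed PINCH TPM went from 87.2% ± 0.761 to 92.9% ± 1.06, without overlap. LIMS2, PINCH-2, stood at 11.03, 11.98 and 12.1 CPM and 12.1, 10.3 and 9.45 CPM (-0.14 ± 0.10, adjusted p = 0.301). PARVA, α-parvin, stood at 115, 109.8 and 112 CPM and 121, 123 and 119 CPM (0.10 ± 0.05, adjusted p = 0.115). The 95% interval of this log2 fold change was -0.01 to 0.21. PARVB, β-parvin, averaged 10.8 ± 0.574 and 9.34 ± 0.780 CPM (-0.21 ± 0.10, adjusted p = 0.0953) and shares 42.4% of its exonic bases with PARVG, which had almost no reads. ILK, the pseudokinase at the centre of the complex, averaged 6.45 ± 0.608 and 7.08 ± 0.216 CPM (0.13 ± 0.11, adjusted p = 0.363). It shares 70.1% of its exonic bases with TAF10 on the opposite strand, so its count is uncertain.

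The tensins, which take over from talin on the β tail in fibrillar adhesions, moved in opposite directions. TNS1 rose from 65.8, 64.1 and 66.9 CPM to 152, 173 and 168 CPM (1.32 ± 0.06, adjusted p = 3.62e-08), the largest rise among the called genes. TNS3 fell from 215, 215 and 207 CPM to 159, 188 and 176 CPM (-0.29 ± 0.06, adjusted p = 0.00439). TNS2 stood at 41.7, 42.9 and 45.2 CPM and 45.5, 35.7 and 37.8 CPM (-0.12 ± 0.09, adjusted p = 0.276), with TGF-β1 replicate 1 above the other treated libraries, and TNS4 had at most 1 read in a library. In summed tensin TPM, TNS1 held 16.7% ± 0.388 in the control and 37.1% ± 1.29 after TGF-β1, and TNS3 held 59.4% ± 1.27 and 43.3% ± 2.08. Neither share overlapped between the groups (exact permutation p = 0.1 for both, the smallest possible). TNS3 remained above TNS1 per length in each library, with a ratio of TNS1 to TNS3 of 0.281 ± 0.0119 and 0.857 ± 0.0192.

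Of the signalling scaffolds, paxillin alone was called. PXN, paxillin, a docking protein for FAK and vinculin, rose from 294, 291 and 273 CPM to 465, 464 and 439.6 CPM (0.67 ± 0.05, adjusted p = 2.72e-06). PTK2, the gene of focal adhesion kinase (FAK), stood at 242, 235 and 255 CPM and 239, 255 and 252 CPM (0.03 ± 0.05, adjusted p = 0.713, 95% interval -0.09 to 0.15). BCAR1, the p130Cas substrate of FAK, averaged 16.6 ± 0.941 and 15.1 ± 0.752 CPM (-0.14 ± 0.08, adjusted p = 0.170), and a second entry on an alternate contig held 174 to 368 reads per library, so the reads of this gene are split. ZYX, zyxin, a marker of mature adhesions under tension, was read at 4.65, 5.56 and 7.71 CPM and 15.6, 8.89 and 41.5 CPM. The groups did not overlap, but the treated libraries ranged widely and the change was not called (1.87 ± 0.71, adjusted p = 0.106). ZYX also has a second entry on an alternate contig, of the same length of 2228 bases, with 1 to 3 reads per library. How reads that match both copies were counted is not given, so the level of ZYX is uncertain.

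TGF-β1 replicate 1 stood apart for several adaptors that were not called. Without it, TLN1 (log2 fold change 0.13) and TLN2 (0.22) were called as higher and LIMS2 (-0.26) and TNS2 (-0.25) as lower, and the log2 fold change of ITGAV was 1.05. Calls also increased over all genes when TGF-β1 replicate 1 was left out. They came to 3545 higher and 3651 lower among 15106 tested, against 3294 and 3288 among 14860 with every library.

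**Figure D4:**
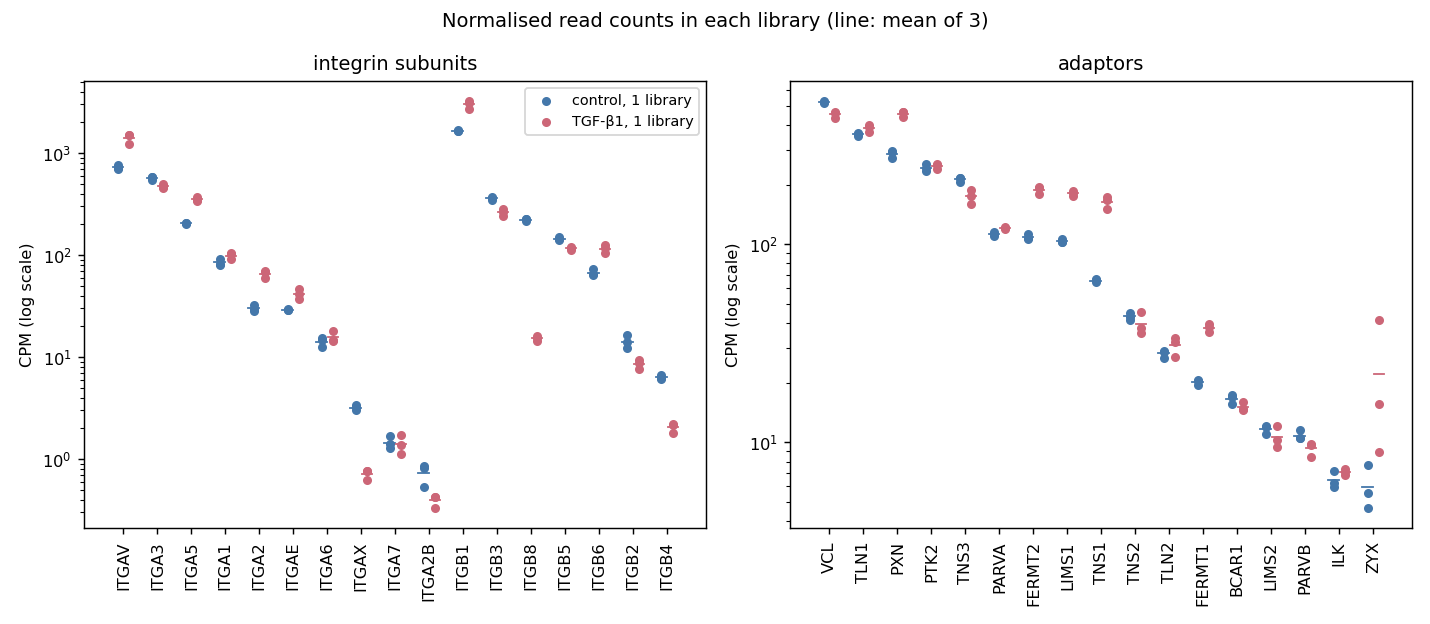
CPM on a log axis of each of the 34 genes tested, in 3 control (blue) and 3 TGF-β1 (red) libraries, with a line at each mean. Integrin subunits are on the left and adaptors on the right. ITGB8 drops from a mean of 223 to 15.3 CPM, and the ZYX libraries after TGF-β1 spread from 8.89 to 41.5 CPM.

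Other adhesion genes, taken from lists chosen with earlier results of these data known, divided in both directions. Their counts stand beside 22.2% higher and 22.1% lower among all genes tested. Of 37 tested partners of focal adhesions, 11 rose, 13 fell and 13 were not called (median log2 fold change 0.05). NEDD9, a scaffold of the same family as BCAR1, rose by 1.26 ± 0.05 on the log2 scale (adjusted p = 1.11e-08), from a mean of 68.03 ± 1.69 to 163 ± 1.55 CPM. CAV1, the caveolar coat protein, changed by -1.10 ± 0.05 (adjusted p = 3.47e-08) and DAB2, an endocytic adaptor that binds β tails, by -0.86 ± 0.06 (adjusted p = 1.32e-06). Of 10 tetraspanins and other lateral partners, 3 rose, 3 fell and 4 were not called (median -0.04). CD9, a tetraspanin, fell from 11.2 ± 1.24 to 1.60 ± 0.245 CPM (-2.80 ± 0.15, adjusted p = 9.71e-08), and CD47, the lateral partner of αVβ3, from 270.2 ± 5.89 to 122 ± 6.62 CPM (-1.15 ± 0.06, adjusted p = 4.81e-08). The syndecans SDC1 and SDC4, co-receptors for matrix, moved in opposite directions (0.68 ± 0.06, adjusted p = 5.62e-06, and -0.45 ± 0.06, adjusted p = 1.37e-04).

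The ligands are given by the class of receptor they bind. All 8 tested ligands of collagen receptors rose (median 1.66; 22.2% of all genes tested rose), among them COL1A1 (3.30 ± 0.06, adjusted p = 7.24e-11), COL4A1 (1.92 ± 0.05, adjusted p = 1.08e-09), COL5A1 (1.41 ± 0.05, adjusted p = 7.90e-09) and COL4A2 (1.07 ± 0.06, adjusted p = 1.95e-07), chains of fibrillar and basement membrane collagens. Of 14 tested RGD ligands and carriers of latent TGF-β, 7 rose, 4 fell and 3 were not called (median 0.32). TGFB1 itself rose from 59.99 ± 3.72 to 208 ± 27.5 CPM (1.79 ± 0.09, adjusted p = 2.59e-07) and TGFB3 from 5.48 ± 0.542 to 10.9 ± 1.66 CPM (0.99 ± 0.13, adjusted p = 1.35e-04). Their latency peptides carry the RGD bound by αVβ6 and αVβ8. The matricellular ligand CCN2 rose (1.56 ± 0.07, adjusted p = 2.67e-08) and SPP1, osteopontin, fell (-1.02 ± 0.07, adjusted p = 9.19e-07).

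Of 9 tested laminin chains, the ligands of α3β1, α6β1, α7β1 and α6β4, 2 rose, 5 fell and 2 were not called (median -0.42). LAMA5 changed by -0.93 ± 0.05 (adjusted p = 1.11e-07), LAMC1 by -0.48 ± 0.07 (adjusted p = 3.19e-04) and LAMA3 by -2.08 ± 0.10 (adjusted p = 6.39e-08). The hemidesmosome list, which shares chains with the laminin list, held 2 genes that rose, 4 that fell and 1 not called (median -0.52). LAMB3, a laminin chain of both lists, changed by -0.52 ± 0.05 (adjusted p = 1.70e-05). DST, which holds the plakin BPAG1, fell from 633 ± 35.4 to 323 ± 78.98 CPM (-0.97 ± 0.20, adjusted p = 0.0132). Of 5 tested ligands of leukocyte integrins, 1 rose, 2 fell and 2 were not called (median -0.03), with VCAM1 at -2.96 ± 0.17 (adjusted p = 1.88e-07), ICAM3 at 0.47 ± 0.12 (adjusted p = 0.00948) and F11R at -0.18 ± 0.06 (adjusted p = 0.0345).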

How the data were processed

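RNA was measured in 3 control and 3 TGF-β1 libraries of HK-2 cells. Poly(A) RNA was captured on oligo(dT) beads and primed with random hexamers. Adapters and low-quality reads were trimmed away by the authors, and the submitters' processing notes name CASAVA, featureCounts 2.0.1, DESeq2 1.16.1 and hg38. The aligner, the strand setting and the annotation release are not given in the sources used here. Per the file headers, the deposited tables hold raw counts per gene, which were used for all tests, and TPM values computed by the authors, which were used for levels per length and partner shares. Each table listed 42095 entries, 598 of them unnamed. The unnamed entries took 0.396% to 0.464% of a library and entered neither library sizes nor tests. In each table, 7 records that ran over several lines were put back together.

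Counts were tested with the quasi-likelihood F test of edgeR 4.0.16 (robust fit, filterByExpr with a minimum count of 10, TMM scaling), with Benjamini-Hochberg adjustment over all 14860 genes that passed the filter. A gene was called at an adjusted p under 0.05. The SE was the log2 fold change divided by the square root of F. Shares were tested with a 2-sided exact permutation test over libraries. The script was tested on simulated data first. Members that averaged 5 CPM or more in a group were given by library, and of each other list at most 4 called genes were named, those with the largest change among genes that averaged 5 CPM or more in a group and did not overlap between groups, some of which are not reported here. Ligands could also be named beside their receptor. The members, lists and tests were chosen with earlier results of these data known. Promoter windows came from RefSeq, GRCh38.p14. Alternatives used DESeq2 1.42.0, limma-voom (limma 3.58.1), other scalings and filters, summed entries of a name, a replicate block, a test against a 2-fold limit and leaving out each library. The correlation of the deviations of same-numbered libraries was 0.11, -0.01 and 0.08, so the numbers were not taken to pair the samples.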

Additional observations from a re-analysis of the deposited data

Results flagged for a closer look

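One entry without a gene name lay 49905 bases from TLN2, on chromosome 15 from 62894536 to 62899468 (plus strand), and was read at 1.51, 1.72 and 1.32 CPM in the control libraries and at 3.73, 2.32 and 2.29 CPM in the TGF-β1 libraries. Its mean after TGF-β1, 2.78 ± 0.821 CPM (SD, n = 3), was above that of the control, 1.51 ± 0.198 CPM, and no treated library overlapped the controls. It stood out because it belongs to no comparison above. In all, 4 such entries lay within 50 kb of an integrin or adaptor gene, and the groups overlapped for those near ITGB7 and PXN. The entry near FERMT1 was lower in each treated library, at 6.74, 7.64 and 6.82 CPM in the control and 6.68, 5.50 and 5.83 CPM in the TGF-β1 libraries.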

How the results depend on the processing

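Of the 22 genes called, 20 kept their call in each of the 14 alternatives that tested them, and the exceptions were ITGA1 and ITGA2B. ITGAX and ITGA2B averaged under 50 counts and were not tested with that filter. ITGA1 was also lost with total counts only (log2 fold change 0.12, adjusted p = 0.190), and ITGA2B with DESeq2 (-0.90), with all genes that had a count (-0.88) and with the replicate block (-0.87). Leaving out 1 library at a time gave 11 to 14 genes higher and 9 to 11 lower. The fit against a 2-fold limit kept 1 gene as at least 2-fold higher, TNS1, in place of 2. With total counts only, the log2 fold changes of TLN1 (-0.0027), PARVA (-0.0037) and PTK2 (-0.081), none of them called, changed sign, PARVB (-0.32) and BCAR1 (-0.24) were called, and the split over all genes went from 3294 higher and 3288 lower to 2134 and 4590. ITGA7, not called, changed sign when control replicate 2 (0.05) or TGF-β1 replicate 1 (0.065) was left out. DESeq2 called ZYX (1.87, adjusted p = 0.0151).

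Shares computed from counts in place of TPM changed by -8.70 points for ITGB8 and by 0.55 for ITGB6 among the β partners of ITGAV, and by -0.313 for ITGB4 beside ITGB1, since long genes then weigh more. Same-numbered libraries did not deviate together, and only control replicate 1 correlated best with its own number. With the replicate block, 12 genes were higher and 9 lower.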

Other observations

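Of the 7 fibroblast markers, 4 were tested, 2 rose and 2 fell. PDGFRB rose from 0.551 ± 0.0938 to 5.79 ± 0.429 CPM (SD, n = 3; log2 fold change 3.38, adjusted p = 1.07e-07 by edgeR) and COL3A1 from 0.198 to 1.40 CPM (2.78), while LUM fell from 61.7 to 50.99 CPM (-0.28) and THY1 from 0.895 to 0.269 CPM (-1.72). The untested DCN and ACTA2 had means of 0.127 and 0.168 CPM in the control and 0.168 and 0.139 CPM after TGF-β1. The entry LOC105370854, which shares 11.2% of the exonic bases of TLN2, rose from 0.852 ± 0.224 to 1.78 ± 0.452 CPM. NCBP3, which overlaps ITGAE, rose from 101 ± 2.45 to 167 ± 17.6 CPM.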
